A study of Saccharomyces cerevisiae with 4 samples.

Results

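The genes of the RNA polymerase I and III machinery were compared between a long-lived budding yeast mutant and its wild type. They comprise the subunits of both enzymes, their initiation factors and the repressor MAF1, 41 genes in all, which were chosen by name and role, with earlier results of these data known but by no threshold on a value. Each of the 41 was named by 1 probe set of the array, out of 5376 tested probe sets for 5330 genes. All 41 were called present in both usable call columns, so none was lost to the filter on dim signals. The wild type was W303-1A (given as W303 in the sample labels) and the mutant was the strain SSG1 with the genotype SSG1-1. Both strains were kept at 25 °C in YPD, a rich medium, and then grown in SDC medium at pH 6.0 for 12 h to early-log phase, with no other treatment. The labels do not say what the SSG1-1 mutation is, or whether the mutant strain was a single clone. There were 2 one-colour Affymetrix arrays per strain, numbered 1 and 2.

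RNA polymerase I makes the precursor of the large ribosomal RNAs in the nucleolus, and RNA polymerase III makes transfer RNAs, the smallest ribosomal RNA and other short RNAs. Together they make most of the RNA of a growing cell. The output of both enzymes follows growth rate and nutrient signals, which act through Rrn3 on polymerase I and through Maf1 on polymerase III. Messenger RNAs of their subunits are part of the ribosome biogenesis program of yeast, and a promoter element of that program, PAC, was named after polymerases A and C, as these enzymes are also called. The arrays measured the messenger RNAs that encode these proteins, not the RNAs that the polymerases make.

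Across the tested probe sets the median signal as deposited was 1212 and 1048 for the wild type, and 909 and 1138 for the mutant. Signals below are given after quantile normalization, in the order wild type 1, wild type 2, mutant 1 and mutant 2, and differences are log2 mutant minus wild type with limma's moderated standard error (SE, n = 2 arrays per strain). A mutant and a wild-type array that share a number were more alike (median absolute log2 difference 0.136 for number 1 and 0.128 for number 2) than the arrays of 1 strain (0.184 in the wild type and 0.193 in the mutant). What the numbers stand for is not stated, nor is whether separate cultures were used, so that p-values reflect the spread among these arrays alone, and that spread may be technical. In RNA from a whole culture, fewer cells that express a gene and less of its RNA per cell cannot be told apart. Over 7 marker genes of a cells the median difference was -0.17, and 4 had both mutant values under both wild-type values. Over 5 markers of alpha cells it was -0.11, with 1 such gene. All tested probe sets had a median of -0.02, and 18% of them lay lower in this way. Single differences ran from -0.91 to 0.23 among the a-cell markers and from -0.63 to 0.57 among the alpha-cell markers. Signals ran from 341 to 13873 for the a-cell markers and from 18 to 2185 for the alpha-cell markers. Both alpha-cell extremes came from dim probe sets, MF(ALPHA)1 (SE 0.54) and STE3 (SE 0.40). The part of the marker differences in the results was not tested.

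Most of the genes of the machinery lay slightly lower in the mutant. Of the 41, 32 had a difference below 0, against 54.1% of all tested probe sets. For 19 of the 41 both mutant arrays lay below both wild-type arrays, against 18% of all tested probe sets. MAF1, the gene of the repressor, was the only one of the 41 to be higher in the mutant without overlap, against 14% of all tested probe sets. The median difference over the 41 genes was -0.10, beside -0.02 over all tested probe sets. It was -0.14 for the arrays numbered 1 and -0.05 for the arrays numbered 2. Single differences ran from -0.49 for RPC31 to 0.23 for MAF1.

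None of the 41 passed limma's adjusted threshold, and 1 probe set of all tested did (0.0186%). At an unadjusted p under 0.05, 3 of the 41 were lower (1.8% of all tested probe sets were) and 0 were higher (2.72% were). The 3 were RPC31, RPC53 and RPC37, all encoding subunits of polymerase III. The limma adjusted p of the members lay between 0.936 and 0.998. The number of arrays, 2 per strain, sets the precision, and the members' SE ran from 0.063 to 0.44. With the array number as a block in the fit, limma called 9 of the 41 lower (7.46% of all tested probe sets were) and 1 higher (7.94% were), and these calls rest on arrays whose pairing the labels do not state.

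**Figure D1:**
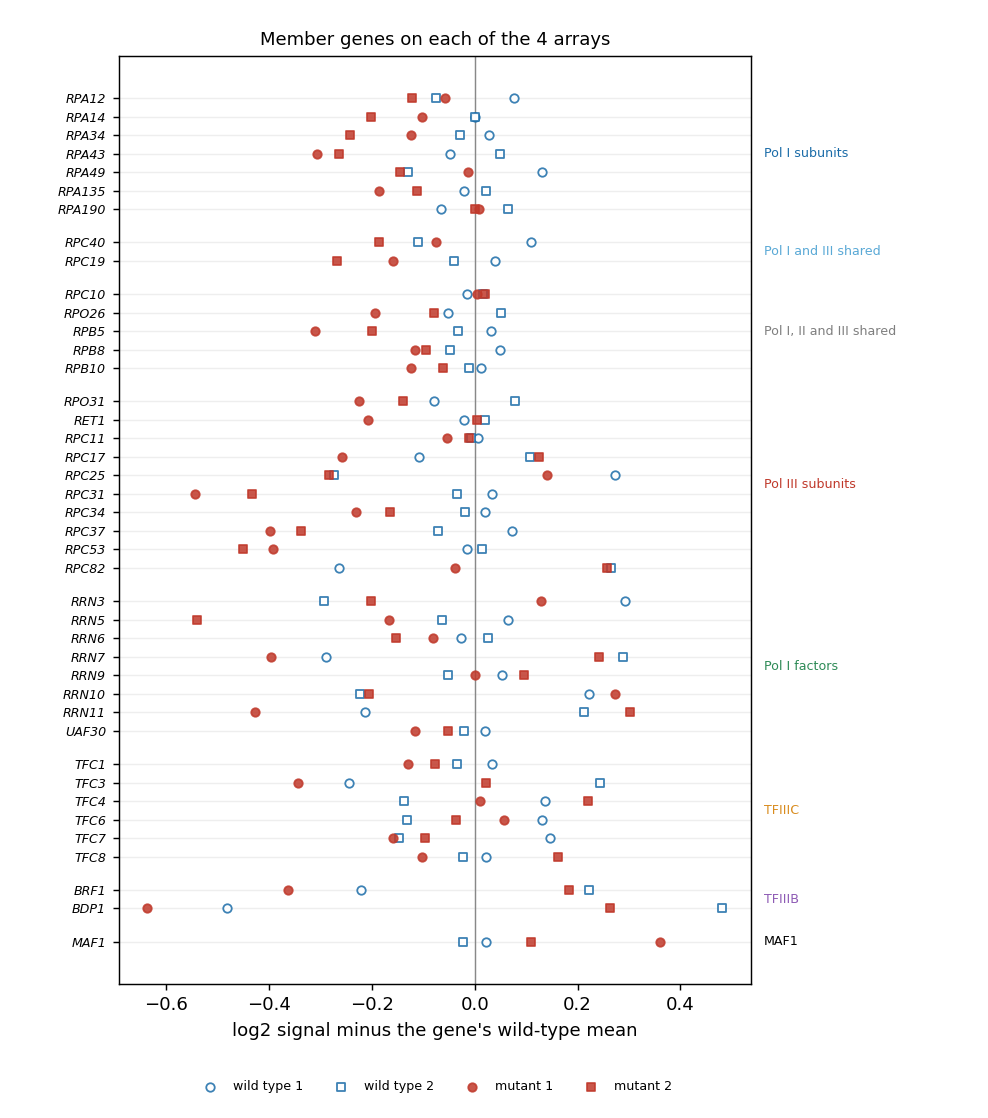
Log2 signal of each of the 41 genes on each of the 4 arrays, minus the mean of the gene's wild-type arrays (horizontal axis), with genes grouped by role (vertical axis). Open blue symbols are wild type and filled red symbols are mutant, circles are arrays numbered 1 and squares are arrays numbered 2. For 19 genes both red symbols lie left of both blue symbols, and for MAF1 both lie right of them.

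Among the 7 subunits found only in polymerase I, 4 lay lower on both mutant arrays and 3 overlapped (18% of all tested probe sets lay lower in this way), with a median difference of -0.15. RPA190 (YOR341W) and RPA135 (YPR010C) encode the large subunits that form the catalytic centre. The signals of RPA190 were 8439.8, 9235, 8881 and 8828. Both mutant values lay between the wild-type values, and the difference was 0.0042 ± 0.078, with a 95% interval from -0.20 to 0.20. In the deposited values, where all tested probe sets had a median of -0.15, RPA190 stood at -0.13. There both mutant values lay below both wild-type values. RPA135 had signals of 10138, 10442, 9049 and 9521. Its strains did not overlap, with a difference of -0.15 ± 0.07.

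RPA43 (YOR340C) and RPA14 (YDR156W) encode the stalk of polymerase I, and Rpa43 is the contact for the initiation factor Rrn3. Signals of RPA43 were 1561, 1670.1, 1306 and 1346, which gave -0.28 ± 0.13, the lowest difference among the polymerase I subunits. RPA14 had 7947, 7946, 7404 and 6911 and a difference of -0.15 ± 0.08. Neither stalk gene had overlapping strains, although RPA14 overlapped when arrays were centred on their medians. RPA34 (YJL148W) and RPA49 (YNL248C) encode a pair that stabilises the enzyme on DNA and helps elongation. RPA34 had signals of 6957, 6686, 6256 and 5763 and lay at -0.18 ± 0.09 without overlap, while RPA49 overlapped at -0.08 ± 0.12. RPA12 (YJR063W), for the subunit that cleaves the transcript at a stalled site, also overlapped, at -0.09 ± 0.09. In the deposited values its mutant arrays lay lower without overlap.

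RPC40 and RPC19 encode a pair shared by polymerases I and III that starts the assembly of both enzymes. RPC40 (YPR110C) had signals of 9566, 8221, 8413 and 7796. Mutant array 1 exceeded wild-type array 2, so the strains overlapped, and the difference was -0.13 ± 0.10. In the deposited values the mutant arrays of RPC40 lay lower without overlap. RPC19 (YNL113W) had signals of 4174, 3947, 3635 and 3372 and did not overlap (-0.21 ± 0.11).

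Of the 5 subunits shared with polymerase II as well, 4 lay lower on both mutant arrays (18% of all tested probe sets did), and the median difference was -0.11. RPB5 (YBR154C), for a subunit of the jaw that grips the incoming DNA, had signals of 4292, 4105, 3387 and 3655. Its difference of -0.25 ± 0.10 was the lowest of the 5. RPO26 (YPR187W), whose product helps hold the enzyme together, had 8932, 9595, 8099 and 8765, a difference of -0.14 ± 0.08. For RPB8 (YOR224C) the signals were 13873, 12967, 12372 and 12558, with a difference of -0.11 ± 0.06. RPB10 (YOR210W), a small zinc-binding subunit, had 8459, 8322, 7704 and 8044 (-0.09 ± 0.07). Under median centring of the arrays the strains overlapped for RPO26, RPB8 and RPB10. RPC10 (YHR143W-A), the other small zinc-binding subunit, overlapped at 0.01 ± 0.07. In the deposited values it stood at -0.12, beside a median of -0.15 over all tested probe sets.

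The 10 subunits found only in polymerase III ran from -0.49 to 0.11, with a median of -0.14. For 6 of them both mutant arrays lay below both wild-type arrays, as for 18% of all tested probe sets. RPC31 (YNL151C), RPC34 (YNR003C) and RPC82 (YPR190C) encode a subcomplex that brings polymerase III to its promoters. RPC31 had signals of 1667, 1590.2, 1116 and 1206. The higher mutant signal stayed well under the lower wild-type signal. The mutant level was 28.7% lower, a difference of -0.49 ± 0.13 (limma adjusted p = 0.936).

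RPC34, for the subunit that contacts Brf1, had signals of 897, 873, 755 and 790.2. Its difference was -0.20 ± 0.13 and its strains did not overlap. RPC82 had 818, 1181, 958 and 1175, a difference of 0.11 ± 0.23. For RPC82 the arrays of each strain lay further apart than the strain means. In the deposited values its difference was -0.04, beside a median of -0.15 over all tested probe sets. Within this subcomplex, 2 of 3 genes were lower without overlap, against 18% of all tested probe sets, and 1 overlapped.

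RPC53 (YDL150W) and RPC37 (YKR025W) encode a pair that acts in initiation, termination and renewed initiation by polymerase III. RPC53 had signals of 504, 514, 388 and 373, 25.3% lower in the mutant (-0.42 ± 0.14, limma adjusted p = 0.998). RPC37 had 711, 644, 513 and 535, 22.5% lower (-0.37 ± 0.14, limma adjusted p = 0.998). Both genes lay lower within number 1 (-0.38 for RPC53 and -0.47 for RPC37) and within number 2 (-0.46 and -0.27). Neither gene overlapped between strains with the arrays as deposited or centred on their medians. At an unadjusted p under 0.05 and with median centring, limma counted 2 of the 41 members and 215 of the 5376 tested probe sets. With the deposited values it counted 0 members and 80 tested probe sets.

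The catalytic centre of polymerase III is formed by its large subunits. RPO31 (YOR116C), for the largest subunit, had signals of 3625, 4041, 3277 and 3475 and a difference of -0.18 ± 0.11 without overlap. RET1 (YOR207C), its partner in the catalytic centre, had 3775, 3882, 3314 and 3841. Mutant array 2 lay between the wild-type arrays, and the difference was -0.10 ± 0.12. Under median centring the mutant arrays of RET1 lay lower without overlap. RPC11 (YDR045C), for the subunit that cleaves the transcript and is needed for termination, had 4197, 4158, 4025 and 4147. Its strains did not overlap, but the higher mutant signal lay just under the lower wild-type signal (-0.03 ± 0.09), and they overlapped in the deposited values. The stalk genes RPC17 (YJL011C) and RPC25 (YKL144C) overlapped, at -0.07 ± 0.19 and -0.07 ± 0.25.

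**Figure D2:**
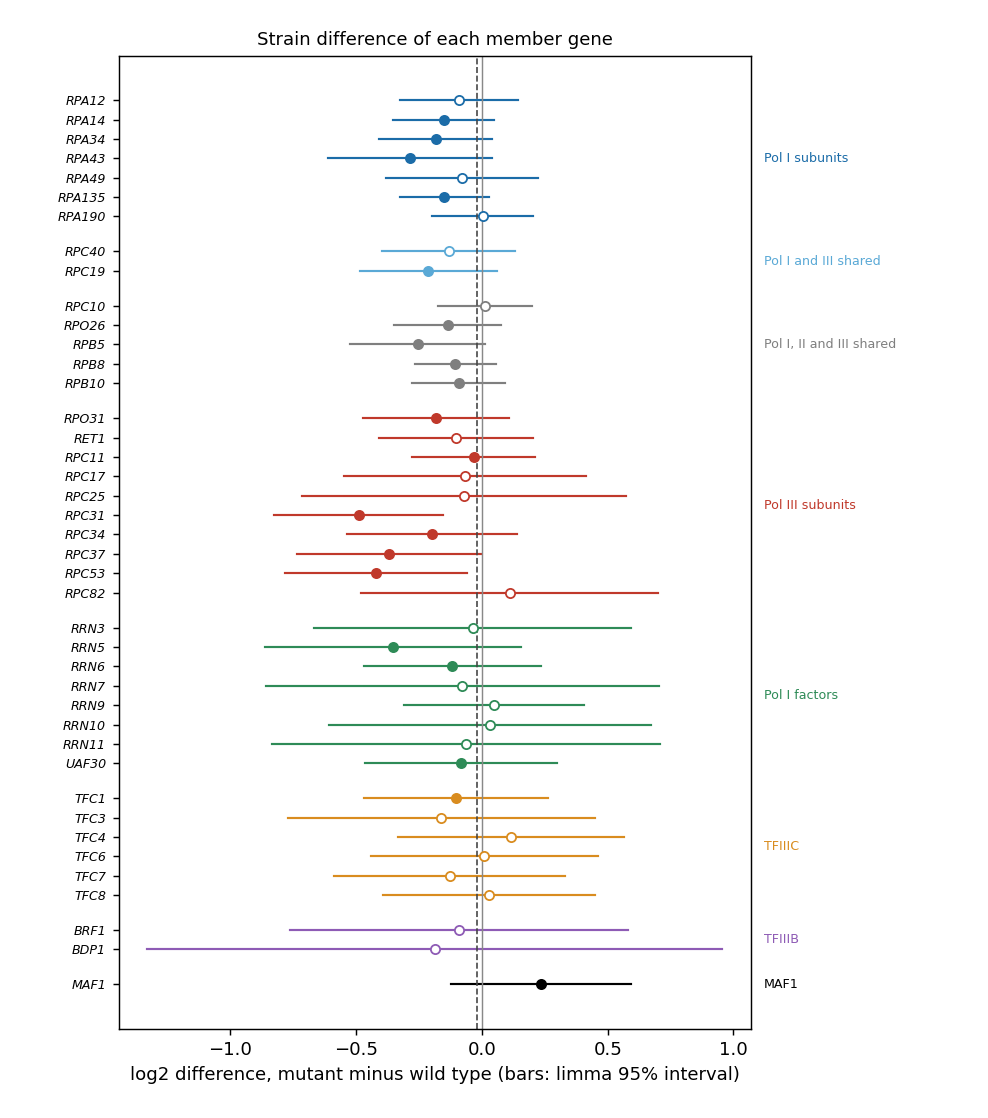
Log2 difference, mutant minus wild type, of each of the 41 genes (horizontal axis), grouped by role (vertical axis), with limma's 95% interval as bars. Filled points are genes whose strains do not overlap, open points overlap, and the dashed line is the median of all tested probe sets at -0.02. RPC31, RPC53 and RPC37 are the genes whose intervals lie below 0.

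Taking the enzymes as a whole, 15 of the 24 subunit genes lay lower on both mutant arrays, 9 overlapped and 0 lay higher, with a median of -0.13. Of the 16 genes for initiation factors, 4 lay lower, 12 overlapped and 0 lay higher, with a median of -0.08. Of all tested probe sets 18% lay lower and 14% higher, so the share of the factor genes that lay lower, 25%, was near the background. The difference between subunits and factors was not tested. The factor genes were measured less precisely, with a median SE of 0.188 beside 0.105 for the subunit genes. Signals of the subunit genes ran from 373 to 13873 and those of the factor genes from 172 to 1824. The part of signal and precision in this contrast was not tested.

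RRN3 (YKL125W), whose product carries polymerase I to the promoter and is the point at which growth signals act, had signals of 1824, 1217, 1630.4 and 1296. Both arrays numbered 1 were higher than both arrays numbered 2, whichever the strain. The strain difference was -0.04 ± 0.25, with a 95% interval from -0.67 to 0.59.

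RRN5, RRN9, RRN10 and UAF30 encode the upstream activating factor, which marks the ribosomal DNA promoter for polymerase I. RRN5 (YLR141W) had signals of 301, 276, 257 and 198, the lowest difference among the factors at -0.35 ± 0.20. UAF30 (YOR295W) had 337, 328, 307 and 321 (-0.08 ± 0.15). Both of these genes lay lower on both mutant arrays, although UAF30 overlapped in the deposited values and under median centring. RRN9 (YMR270C) and RRN10 (YBL025W) overlapped at 0.05 ± 0.14 and 0.03 ± 0.25. In the deposited values they stood at -0.12 and -0.10, beside a median of -0.15 over all tested probe sets.

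RRN6, RRN7 and RRN11 encode the core factor, which binds next to the start site and receives polymerase I with Rrn3. RRN6 (YBL014C) had signals of 580.1, 602, 559 and 531 and did not overlap (-0.12 ± 0.14). RRN7 (YJL025W) and RRN11 (YML043C) overlapped at -0.08 ± 0.30 and -0.06 ± 0.30. In both of these the arrays numbered 1 were lower than the arrays numbered 2 in each strain, by a mean of 0.61 for RRN7 and 0.58 for RRN11 (log2 number 1 minus number 2 of -0.61 and -0.58).

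TFIIIC recognises the promoters inside transfer RNA genes and places TFIIIB, which in turn recruits polymerase III. Of its 6 genes only TFC1 (YBR123C) did not overlap, with signals of 448, 427, 399.9 and 415 (-0.10 ± 0.14), and it overlapped in the deposited values. This count of 1 in 6 lower genes was near the 18% of all tested probe sets. TFC3 (YAL001C) stood at -0.16 ± 0.24 and TFC7 (YOR110W) at -0.13 ± 0.18. The remaining members were positive after quantile normalization. TFC4 (YGR047C) stood at 0.12 ± 0.18, TFC8 (YPL007C) at 0.03 ± 0.16 and TFC6 (YDR362C) at 0.01 ± 0.17. These 3 were negative in the deposited values, where all tested probe sets had a median of -0.15. All 6 were below 0 within number 1, with a median of -0.13, against 53.6% of all tested probe sets. Within number 2, 2 of 6 were below 0, against 52.6%, and the median was 0.07.

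The TFIIIB genes overlapped. BRF1 (YGR246C), for the subunit that binds polymerase III, had signals of 429, 583, 389 and 568. The arrays numbered 2 were the high ones in each strain, and the strain difference was -0.09 ± 0.26. BDP1 (YNL039W), for the subunit that locks the complex on DNA, had 191, 372, 172 and 319.9. Here the numbers differed by -0.93 (log2 number 1 minus number 2), the strains by -0.19 ± 0.44, and the 95% interval of the strain difference ran from -1.33 to 0.95. Over the 41 genes, the shift between numbers was larger than the strain difference for 18, against 62.5% of all tested probe sets.

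**Figure D3:**
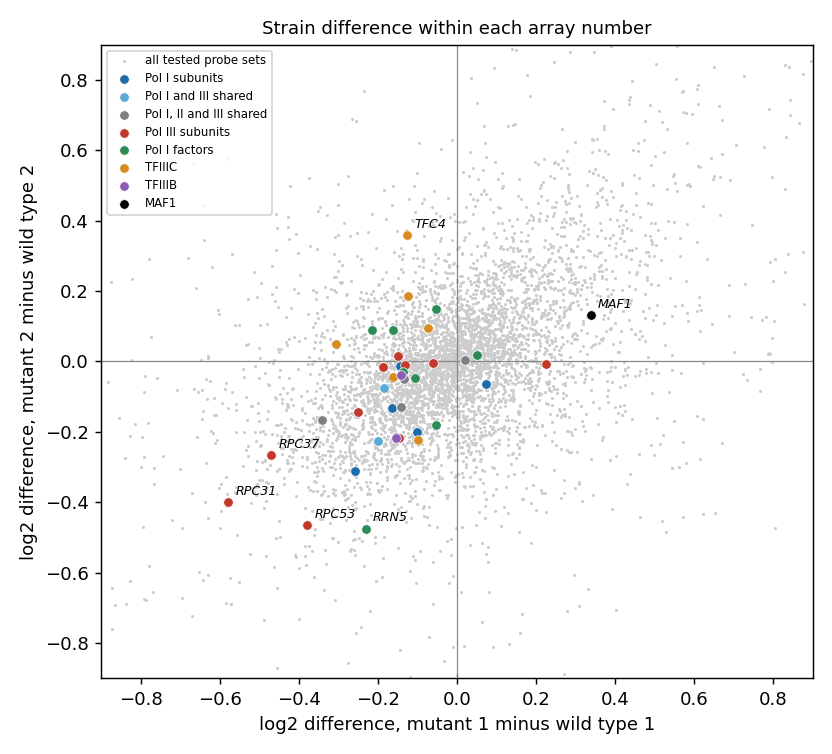
Log2 difference between mutant and wild type on the arrays numbered 1 (horizontal axis) and on the arrays numbered 2 (vertical axis). Coloured points are the 41 genes by role and grey points are all tested probe sets, of which 131 lie outside the axes, which end at 0.9. For 28 of the 41 genes the difference was below 0 within both numbers, and RPC31, RPC53, RPC37 and RRN5 lie furthest to the lower left.

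For 28 of the 41 genes the difference was below 0 within both numbers, against 36.4% of all tested probe sets, and for 3 it was above 0 within both, against 29.9%. Within number 1, 36 of the 41 were below 0, against 53.6% of all tested probe sets, and within number 2, 30 were, against 52.6%. The subunit genes were alike in this respect, with 21 of 24 below 0 within number 1 and 22 of 24 within number 2. Of the 16 factor genes, 15 were below 0 within number 1 and 8 within number 2, the latter near the background share. Whether subunits and factors differed in this was not tested.

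MAF1 (YDR005C) encodes the repressor that enters the nucleus and binds polymerase III when nutrients are short or cells are stressed. Its signals were 2139.9, 2076, 2706 and 2274. Either mutant signal exceeded either wild-type signal, 1.18-fold in the mean, a difference of 0.23 ± 0.14 with a 95% interval from -0.12 to 0.59. The limma adjusted p was 0.998. Mutant array 1 carried more of the difference, with 0.34 within number 1 and 0.13 within number 2. In the deposited values MAF1 stood at 0.06 beside a median of -0.15 over all tested probe sets, and there the strains overlapped. The control of Maf1 acts largely on the protein, through its phosphorylation and place in the cell, which these arrays do not measure.

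Related genes were set beside the machinery, and none of those lists had a member past limma's adjusted threshold (0 of 47 genes, of which 1 passed an unadjusted p under 0.05). The 7 subunits found only in polymerase II had a median of -0.07, and 4 were lower without overlap and 0 higher (18% and 14% of all tested probe sets were). The lower ones were RPB3 at -0.25 ± 0.13, RPB4 at -0.21 ± 0.13, RPB2, for a large catalytic subunit, at -0.07 ± 0.11 and RPB11 at -0.06 ± 0.12. The polymerase II subunits thus held 4 of 7 lower genes, beside 4 of 7 for the polymerase I subunits and 6 of 10 for the polymerase III subunits. The differences between the enzymes were not tested.

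Of 13 other factors of polymerase I and III transcription and kinases of Maf1, 4 were lower and 1 higher without overlap (18% and 14% of all tested probe sets were), and the median was -0.09. NET1, for a nucleolar protein that binds polymerase I, had signals of 511, 639.5, 411 and 452 and the lowest difference among them, at -0.41 ± 0.18. SCH9, for the kinase that phosphorylates Maf1 in rich conditions, was at -0.13 ± 0.11. SUB1, for a factor of polymerase II and III transcription, was at -0.11 ± 0.13, and CKA1, for a catalytic subunit of casein kinase, at -0.10 ± 0.13.

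Among 18 genes for the processing and export of transfer RNAs, 5 lay lower on both mutant arrays and 0 higher (18% and 14% of all tested probe sets did), and the median was -0.02, beside -0.02 over all tested probe sets. LHP1, for the La protein that binds the ends of new polymerase III transcripts, had signals of 3950.2, 4027, 3129.7 and 3120.1. It was 21.6% lower in the mutant, without overlap (-0.35 ± 0.10, limma adjusted p = 0.944). RPR2 encodes a subunit of ribonuclease P, which trims the front end of transfer RNA precursors. Its signals of 57.7, 42.4, 24.4 and 35.7 were dim. The difference was -0.74 ± 0.36, with a 95% interval from -1.68 to 0.19, and it was -1.24 within number 1 and -0.25 within number 2. The ribonuclease P subunit genes POP3 and POP1 were at -0.17 ± 0.17 and -0.10 ± 0.13.

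Of 9 transcription factors that act on ribosome biogenesis and ribosomal protein genes, 2 were lower and 1 higher without overlap, near the 18% and 14% of all tested probe sets, and their median was -0.15. SFP1, an activator of ribosome biogenesis genes, had signals of 1316, 1354, 1001 and 1165 (-0.31 ± 0.14). DOT6, a repressor that binds the PAC element, had 1655, 1314, 2058 and 1757 (0.37 ± 0.18). Neither difference passed the threshold (limma adjusted p = 0.998 for each). TOD6, for the paralog of Dot6 that also binds PAC, overlapped at -0.04 ± 0.15 and was named after its value was seen. IFH1, a coactivator at ribosomal protein genes, was at -0.20 ± 0.17.

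**Figure D4:**
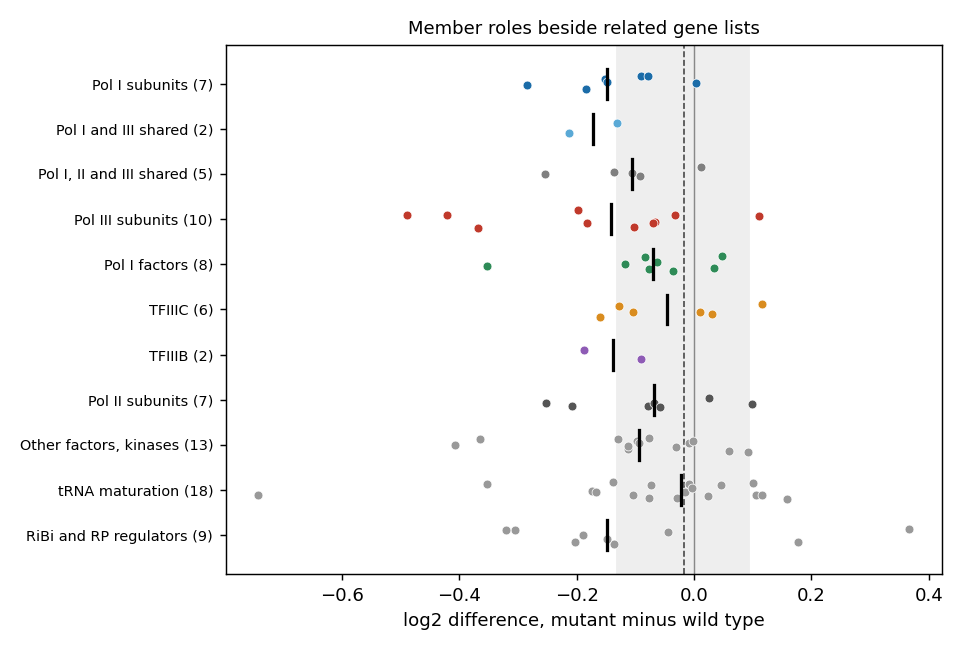
Log2 difference, mutant minus wild type (horizontal axis), of the member genes by role and of 4 related gene lists (vertical axis). The number of genes stands beside each role or list, and MAF1 is not drawn. RiBi stands for ribosome biogenesis and RP for ribosomal protein genes. Points are genes, black bars are medians, the dashed line is the median of all tested probe sets at -0.02 and the grey band is their interquartile range from -0.13 to 0.09. The medians of the polymerase I, polymerase III and shared subunits lie between -0.17 and -0.11, and that of the tRNA maturation list is at -0.02. Those of the polymerase II subunits, the other factors and kinases, and the RiBi and RP regulators are at -0.07, -0.09 and -0.15.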

How the data were processed

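Each deposited value is a signal intensity of 1 probe set on 1 array, unlogged, taken from the series table. GCOS is named without a version in the submitters' processing notes, and neither its background correction nor its scaling target is given in the sources used here. Detection calls were taken from a second deposited table, for the 1 array per strain whose value column names the strain. Each call column was matched to a strain by its place right after that value column. The 2 value columns that name a strain equalled replicate 2 of that strain in all 10928 values. The 4 other columns of values and calls were not used.

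Names of probe sets come from the array's annotation, and 12 symbols were updated by gene identifier against the RefSeq R64 table. Of 5498 probe sets for 1 S. cerevisiae gene, 5376 were called present in at least 1 call column and tested. Array medians differed, so log2 signals (floor 0.1) were quantile normalized, and a change shared by all genes is not measured. limma 3.58.1 in R 4.3.3 (lmFit, eBayes with a mean-variance trend) compared 2 arrays with 2, with Benjamini-Hochberg adjustment over all tested probe sets and a threshold of 0.05. The fit was tested on simulated data with planted changes larger than any member's difference and no shift between array numbers. That test does not cover smaller changes or such a shift. Plots were made in matplotlib 3.10.9 (Python 3.11.15).

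Members and lists were chosen with earlier results of these data known. All 41 members are named, with array values for those without overlap between strains and for 8 always-shown genes. Of each related list up to 4 genes are named, those without overlap and with the largest differences. TFC2 was matched under its reference name PZF1, and 1 list name, FPT1, had no probe set. Alternatives were the deposited values, median centring, quantile normalization over S. cerevisiae probe sets, no call filter, no trend, a replicate block, a floor of 16 and leaving out each array. Promoter motifs were planned and are not analysed here. Coordinates are left out, as no build is named.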

Additional observations from a re-analysis of the deposited data

How the results depend on the processing

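No member passed limma's adjusted threshold under any alternative other than the replicate block. Same-numbered arrays deviated together from their strain means (correlation 0.634 across probe sets), but there are only 2 pairs and the meaning of the numbers is not stated. With the replicate number as a block, limma called 828 probe sets (427 higher and 401 lower, 7.94% and 7.46% of all tested) and 10 of the 41 members: RPA14, RPA34, RPA43, RPA135, RPC19, RPB5, RPC31, RPC37 and RPC53 lower and MAF1 higher. Without the block it called 1. That count was 6 with the deposited values, 4 with median centring, 0 without the mean-variance trend (280 at an unadjusted p under 0.05) and 0 with a floor of 16 (268), and 2 to 4 when single arrays were left out.

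As deposited, the members had a median of -0.24 and all tested probe sets one of -0.15, and the members' median was -0.143 to -0.095 when single arrays were left out. Of the members, 8 changed sign in the deposited values, 0 did relative to that shift, and 4 to 10 did when single arrays were left out. The 19 members lower without overlap were 19 in the deposited values (16 of them the same, 22.3% of all tested probe sets lower) and 15 under median centring (14 the same, 15% of all lower). In every scaling 12 members were lower, and the share of all tested probe sets that were is not given here. The 1 member higher without overlap became 0 in the deposited values (3.4% of all higher) and 2, with RPC10, under quantile normalization over S. cerevisiae probe sets. When single arrays were left out, 23 to 28 members were lower and 2 to 7 higher without overlap, because 3 arrays overlap less easily than 4 (of all tested, 32.8% to 39.2% were then lower and 29% to 31.4% higher). The remaining settings left the members' median and counts close to those reported. The 2 arrays per strain limit precision, with members' SE of 0.063 to 0.44.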
